A study of Mus musculus with 8 samples.

Results

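Immediate-early and stress genes were described here as a set of 40 named genes across sorted blood stem and progenitor cells of the mouse. A member was measured through the array probe sets that carry its symbol and no other, on the log2 scale and averaged per gene. On these terms 39 of the 40 members had a value, from 199 probe sets, among 19958 genes in all. Hspa1b had none, because its probe set is shared with Hspa1a, and Hspa1a itself rests on 1 probe set.

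The study used Affymetrix Mouse Gene 1.0 ST arrays, which read a gene through several probe sets along its exons, and its title concerns the self-renewal of fetal blood stem cells. All cells passed the same sort for lineage-negative, Sca1-positive, cKit-positive cells, which takes in haematopoietic stem cells together with multipotent progenitors, and all RNA was amplified before labelling. The 3 groups were wild-type (Hmga2+/+) adult bone marrow from mice aged 8 to 12 weeks (n = 2), Hmga2-/- fetal liver at embryonic stage E14.5 (n = 3) and Hmga2+/+ fetal liver at the same stage (n = 3). Strain, sex, the deleted part of Hmga2, the number of animals behind an array and the handling time of the cells are not given in the sources used here. Age and tissue differ together between the adult and the fetal groups, as would any preparation step particular to a tissue, and these cannot be told apart. Adult and Hmga2-/- cells differ in genotype as well.

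Immediate-early genes are switched on within minutes of a growth factor, cytokine, stress or mechanical stimulus, before any new protein is made. Factors already present in the cell, such as SRF, CREB and NF-kappaB, start their transcription, and most of the transcripts decay quickly. Many of the products are transcription factors (FOS and JUN partners of AP-1, EGR zinc fingers, NR4A receptors), while others close the response: DUSP phosphatases switch off MAP kinases, and ZFP36 proteins degrade short-lived mRNAs. In adult marrow Egr1 is known as a gene that helps hold stem cells in quiescence.

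As a check of the labels, Hmga2 read 5.89, 5.88 and 6.08 on the log2 scale on the Hmga2-/- arrays, against 9.24, 9.01 and 8.83 on the Hmga2+/+ fetal arrays (difference -3.08, limma adjusted p = 0.000448). It read 6.61 and 7.19 in adult cells. Background was set at 5.97, the 95th percentile of 980 olfactory receptor genes, whose median was 4.21. Of the 39 members, 32 had a group mean above it in all 3 groups, and Nr4a3, Gadd45b and Rhob lay below it in all 3. Hmga2-/- cells had Zfp36l1 and Cyr61 below it as well, and Hmga2+/+ fetal cells had Fosl2, Socs3 and Cyr61. The medians of the 8 arrays lay between 6.20 and 6.27, and the number of arrays limits the precision.

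Most members read highest in adult cells. The adult mean was the highest of the 3 group means for 32 members (48% of all genes), the Hmga2-/- mean for 5 (30.9%) and the Hmga2+/+ fetal mean for 2 (21.1%). Both adult arrays lay above all 6 fetal arrays for 18 members, where 14.6% of all genes did so. These were Fos, Fosb, Jun, Junb, Atf3, Egr1, Nr4a1, Klf2, Klf6, Dusp1, Dusp6, Btg2, Nfkbiz, Tnfaip3, Ier3, Ier5, Hspa1a and Hspa8. Maff alone lay below all 6 fetal arrays on both adult arrays (11.9% of all genes).

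**Figure D1:**
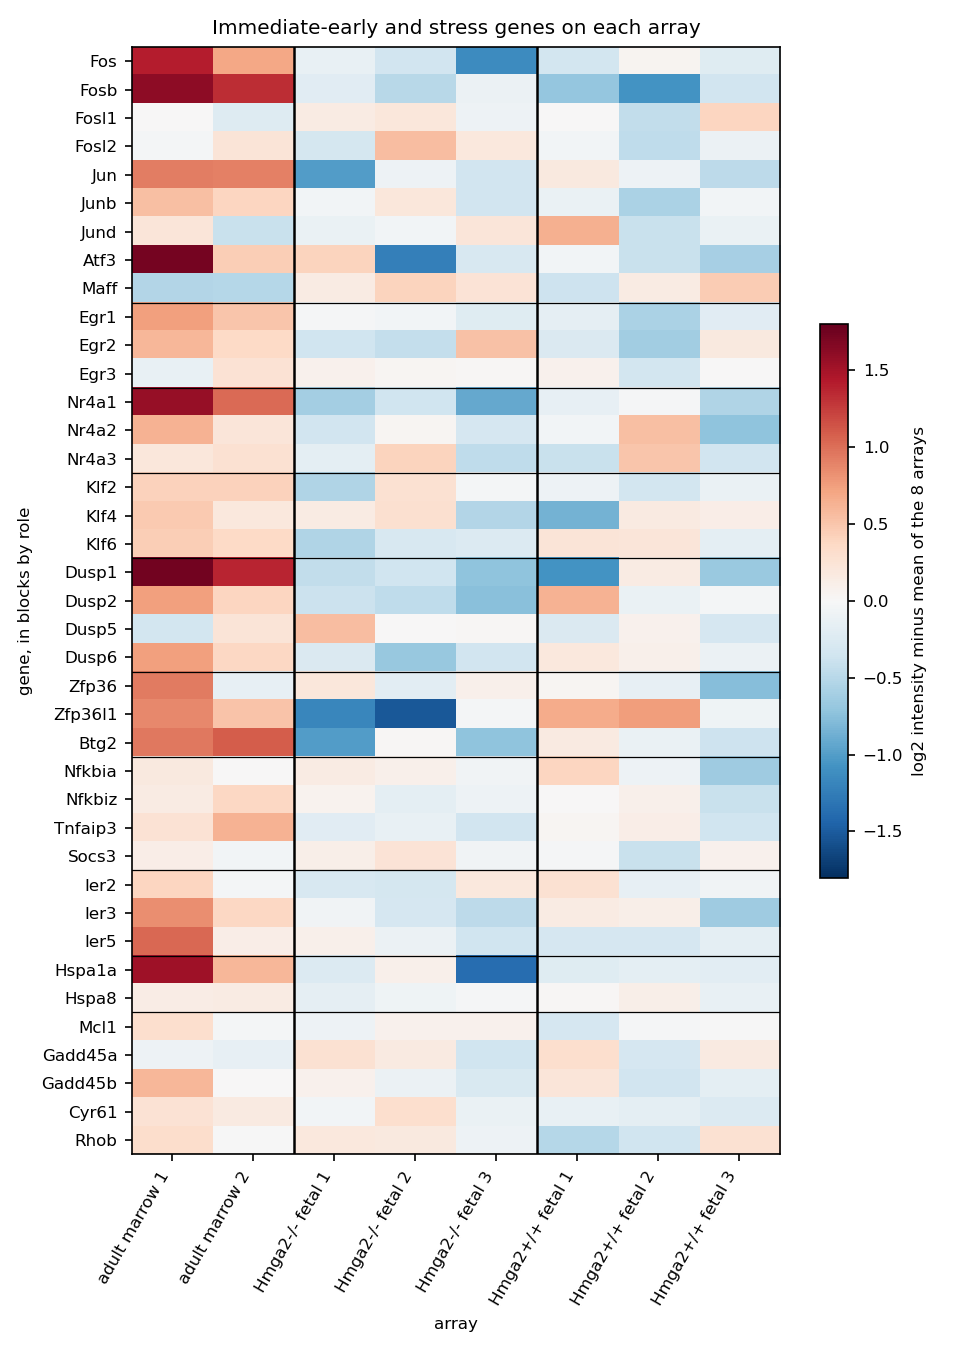
Each row is 1 of the 39 measured members and each column 1 array; the colour gives the log2 intensity minus the gene's mean over the 8 arrays, with thin lines between blocks of genes by role. The 2 adult columns on the left are red in most rows, deepest for Fosb, Dusp1, Nr4a1, Fos, Atf3 and Hspa1a, and Maff is blue in both.

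The test was limma's moderated test on all 8 arrays. Its p-values were adjusted (Benjamini-Hochberg) over 19958 genes, and a gene was called at an adjusted p under 0.05. Differences are adult minus fetal and Hmga2-/- minus Hmga2+/+. Adult against Hmga2+/+ fetal cells, 4 of 39 members were called, all higher (10.3%), where 0.832% of all genes were called higher and 2.36% lower. Adult against Hmga2-/- fetal cells, 12 of 39 were called, all higher (30.8%), where 3.11% of all genes were called higher and 5.8% lower. In that comparison 621 of all genes were called higher and 1158 lower, against 423 and 1443, with 10 members, when each array was centred on its median. Both counts use the same 2 adult arrays, so they are not independent of each other. Hmga2-/- against Hmga2+/+ fetal cells, 0 of 39 were called, and 0.01% of all genes were. The median difference of the members was 0.41 for adult against Hmga2+/+ fetal cells and 0.52 for adult against Hmga2-/- cells, beside 0.06 and 0.07 over all genes.

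Counts without the adjustment were larger on the same side. Against Hmga2+/+ fetal cells, 35 of 39 members read above 0 in adult cells (56.7% of all genes), 22 did so with no overlap between arrays (20.1%), and 16 did so at an unadjusted p under 0.05 (7.29%), while Maff was lower without overlap (15.7%) and at that p (11.3%). Against Hmga2-/- fetal cells, 32 members read above 0 (56.4% of all genes), 21 without overlap (29.6%) and 17 at an unadjusted p under 0.05 (14.7%), and Maff was again the 1 lower member by both measures (20.6% and 14.7%).

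The 3 members with the smallest p in both adult comparisons were Fosb, Dusp1 and Nr4a1. Their promoters are shown for that reason, as the 250 bases before the RefSeq transcript start (GRCm38.p6), read 5′ to 3′ on the strand of the gene. Capitals mark matches on either strand to the cAMP response element TGACGTCA, to its half-site TGACG and to the EGR site GCGGGGGCG; a full element contains the half-site on both strands. The windows are chr7:19310046-19310295 on the minus strand for Fosb, chr17:26508473-26508722 on the minus strand for Dusp1 and chr15:101266596-101266845 on the plus strand for Nr4a1.
Fosb: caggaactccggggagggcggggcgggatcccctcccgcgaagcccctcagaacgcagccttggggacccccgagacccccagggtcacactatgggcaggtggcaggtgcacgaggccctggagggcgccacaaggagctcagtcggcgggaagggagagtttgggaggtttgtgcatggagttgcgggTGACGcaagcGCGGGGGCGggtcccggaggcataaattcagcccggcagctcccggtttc
Dusp1: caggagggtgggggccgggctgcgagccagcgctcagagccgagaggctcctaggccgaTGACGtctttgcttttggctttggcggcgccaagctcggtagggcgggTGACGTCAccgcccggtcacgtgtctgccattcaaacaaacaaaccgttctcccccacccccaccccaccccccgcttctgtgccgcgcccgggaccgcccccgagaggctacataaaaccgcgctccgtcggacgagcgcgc
Nr4a1: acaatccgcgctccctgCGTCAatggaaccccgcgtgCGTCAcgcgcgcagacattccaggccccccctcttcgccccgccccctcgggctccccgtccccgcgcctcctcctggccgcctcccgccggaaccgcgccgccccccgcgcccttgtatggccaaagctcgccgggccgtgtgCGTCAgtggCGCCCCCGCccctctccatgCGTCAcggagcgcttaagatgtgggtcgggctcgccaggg

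Dusp1 holds a full cAMP response element at positions -143 to -136 from the start and a further half-site at -191 to -187. Fosb holds 1 half-site at -60 to -56 and an EGR site at -50 to -42. Nr4a1 holds 4 half-sites, at -233, -213, -69 and -40, and an EGR site at -60 to -52. RefSeq windows of this length were matched by symbol for 34 of the 40 members, all but Egr1, Egr3, Ier2, Nfkbiz, Fosl1 and Hspa8. The half-site stood in at least 1 window of 16 of these 34, against 19.8% of 27025 genes counted the same way, and the EGR site in 8 of 34, against 2.93%. Per window the shares over all genes were 17.8% and 2.57% of 32851. The full element stood in Dusp1, Btg2 and Maff (3 of 34, against 1.77% of genes). Of the members, Maff was the 1 with both adult arrays below all 6 fetal arrays. The CArG box, bound by SRF, was found in Dusp5, Egr2 and Zfp36 (3 of 34, against 1.62%). An NF-kappaB site, read as GGG, any 2 bases and TTTCC, was found in Dusp5, Mcl1, Nfkbia and Tnfaip3 (4 of 34, against 1.65%), and the AP-1 site TGACTCA in Tnfaip3 (1 of 34, against 5.16%). No member window held the heat shock element, in which GAA, TTC and GAA are spaced by any 2 bases (0.514% of genes). A match describes letters in a window, and binding was not measured.

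Among the AP-1 factors, which pair through leucine zippers, Fosb was called in both adult comparisons, and Fos and Jun against Hmga2-/- cells only. Fosb, a FOS family partner of JUN proteins, read 9.97 and 9.70 on the adult arrays, 8.15, 7.87 and 8.26 on the Hmga2-/- arrays and 7.67, 7.29 and 8.02 on the Hmga2+/+ fetal arrays. Both adult arrays were far above every fetal one. Against Hmga2+/+ fetal cells Fosb was 4.53-fold higher (log2 difference 2.18, SE 0.23, adjusted p = 0.00306), and against Hmga2-/- cells 3.34-fold higher (1.74, SE 0.23, adjusted p = 0.00657). Its 5 probe sets were all higher in adult than in Hmga2+/+ fetal cells, by 0.39 to 3.48, and 4 of 5 were higher than in Hmga2-/- cells. The exception was a probe set with means of 5.82 in adult and 6.27 in Hmga2-/- cells.

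Fos, the founding member of its family, read 9.70 and 8.99 on the adult arrays, 8.16, 7.94 and 7.15 on the Hmga2-/- arrays and 7.96, 8.34 and 8.07 on the Hmga2+/+ fetal arrays. Adult arrays again lay above all fetal ones, with a gap between the 2 adult arrays and Hmga2-/- array 3 the lowest. Fos was called against Hmga2-/- cells (1.59, SE 0.32, adjusted p = 0.0210) and not against Hmga2+/+ fetal cells (1.22, SE 0.32, adjusted p = 0.0740). Whether the adult difference itself depended on the fetal genotype is the Hmga2-/- minus Hmga2+/+ difference, which did not pass for Fos (-0.37, SE 0.28, adjusted p = 0.746).

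Jun, the main AP-1 partner of Fos, read 10.76 and 10.74 on the adult arrays, 8.84, 9.75 and 9.50 on the Hmga2-/- arrays and 10.02, 9.75 and 9.36 on the Hmga2+/+ fetal arrays. The adult arrays were nearly equal, and the fetal arrays all lay below them. It was called against Hmga2-/- cells (1.39, SE 0.28, adjusted p = 0.0221), and its difference from Hmga2+/+ fetal cells was 1.04 (SE 0.28, adjusted p = 0.0839). All 6 of its probe sets were higher in adult cells in both comparisons.

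Junb, which limits stem cell proliferation in the mouse, read 7.23 and 7.07 on the adult arrays, 6.64, 6.89 and 6.34 on the Hmga2-/- arrays and 6.57, 6.12 and 6.63 on the Hmga2+/+ fetal arrays. Its groups did not overlap between adult and fetal cells, and it passed in neither comparison (adjusted p = 0.125 against Hmga2+/+ and 0.150 against Hmga2-/- fetal cells). Atf3, a stress-induced factor of the ATF and CREB family, read 8.10 and 6.83 on the adult arrays, 6.78, 5.16 and 6.09 on the Hmga2-/- arrays and 6.33, 5.97 and 5.78 on the Hmga2+/+ fetal arrays. It had the largest standard deviation of any member among the adult arrays (0.90) and among the Hmga2-/- arrays (0.82), and it passed in neither comparison (1.44, SE 0.47, adjusted p = 0.147 against Hmga2+/+ fetal cells, and 1.45, SE 0.47, adjusted p = 0.0841 against Hmga2-/- cells).

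Maff, a small MAF protein without a transactivation domain, ran the other way. It read 6.70 and 6.72 on the adult arrays, 7.38, 7.63 and 7.48 on the Hmga2-/- arrays and 6.86, 7.38 and 7.69 on the Hmga2+/+ fetal arrays. The differences were -0.60 (SE 0.23, adjusted p = 0.213) from Hmga2+/+ and -0.78 (SE 0.23, adjusted p = 0.0662) from Hmga2-/- fetal cells, so neither passed. Most of it lay in 1 of 3 probe sets, with means of 4.55 in adult, 6.80 in Hmga2-/- and 6.49 in Hmga2+/+ fetal cells. Fosl1, Fosl2 and Jund, the remaining AP-1 members, had differences between adult and fetal cells from -0.20 for Fosl1 against Hmga2-/- cells to 0.30 for Fosl2 against Hmga2+/+ fetal cells, and none passed.

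Egr1, the zinc finger factor named above, read 8.67 and 8.43 on the adult arrays, 7.91, 7.88 and 7.71 on the Hmga2-/- arrays and 7.77, 7.36 and 7.73 on the Hmga2+/+ fetal arrays. Both adult arrays were above all fetal ones, and the standard deviations were 0.17 in adult, 0.11 in Hmga2-/- and 0.22 in Hmga2+/+ fetal cells. It was called in both comparisons (0.93, SE 0.18, adjusted p = 0.0316 against Hmga2+/+ fetal cells, and 0.72, SE 0.18, adjusted p = 0.0431 against Hmga2-/- cells). Of its 3 probe sets, 2 were higher in adult cells by 0.91 to 1.56, and 1, below background in all 3 groups, ran the other way against Hmga2-/- cells, by -0.31. Egr2 had means of 7.16 in adult, 6.60 in Hmga2-/- and 6.45 in Hmga2+/+ fetal cells and passed in no comparison. Egr3 had nearly equal means of 6.50 in adult, 6.48 in Hmga2-/- and 6.35 in Hmga2+/+ fetal cells.

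Of the NR4A orphan nuclear receptors, which act without a known natural ligand, Nr4a1 was called. It read 9.12 and 8.58 on the adult arrays, 6.95, 7.20 and 6.64 on the Hmga2-/- arrays and 7.40, 7.53 and 7.02 on the Hmga2+/+ fetal arrays. The lowest adult array was above the highest fetal one by more than the whole width of the fetal range. The difference was 1.92 (SE 0.24, adjusted p = 0.00575) from Hmga2-/- cells and 1.53 (SE 0.24, adjusted p = 0.0150) from Hmga2+/+ fetal cells. All 8 of its probe sets were higher in adult cells in both comparisons, by 0.11 to 3.03 against Hmga2+/+ fetal cells. Nr4a2 had means of 7.98 in adult, 7.36 in Hmga2-/- and 7.48 in Hmga2+/+ fetal cells and was not called, and Nr4a3 was below background in all 3 groups.

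The KLF factors are zinc finger proteins linked to quiescence and differentiation. Klf6 read 9.13 and 9.05 on the adult arrays, 8.15, 8.41 and 8.44 on the Hmga2-/- arrays and 8.92, 8.92 and 8.52 on the Hmga2+/+ fetal arrays. The 3 groups did not overlap, with Hmga2-/- cells lowest, but the gaps were small (9.05 over 8.92, and 8.52 over 8.44). The share of all genes with 3 separate groups was not counted, and the Hmga2-/- minus Hmga2+/+ difference did not pass (limma adjusted p = 0.632). The adult difference was called against Hmga2-/- cells (0.76, SE 0.18, adjusted p = 0.0379) and not against Hmga2+/+ fetal cells (0.31, SE 0.18, adjusted p = 0.411). Klf2, which holds lymphocytes in quiescence, read 8.46 on both adult arrays, 7.50, 8.31 and 8.01 on the Hmga2-/- arrays and 7.96, 7.71 and 7.93 on the Hmga2+/+ fetal arrays. It lay above all fetal arrays in adult cells but did not pass (0.60, SE 0.23, adjusted p = 0.209 against Hmga2+/+ fetal cells). Klf4 had means of 6.94 in adult, 6.58 in Hmga2-/- and 6.42 in Hmga2+/+ fetal cells.

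The dual-specificity phosphatases remove phosphate from MAP kinases and so end the signal that induced them. Dusp1, which acts mainly on p38 and JNK in the nucleus, read 10.50 and 10.13 on the adult arrays, 8.32, 8.41 and 8.05 on the Hmga2-/- arrays and 7.69, 8.91 and 8.10 on the Hmga2+/+ fetal arrays. Adult cells stood over both fetal groups, and the second Hmga2+/+ fetal array was the highest fetal one. Dusp1 was 4.17-fold higher than in Hmga2-/- cells (2.06, SE 0.32, adjusted p = 0.00944) and 4.23-fold higher than in Hmga2+/+ fetal cells (2.08, SE 0.32, adjusted p = 0.0134). Each of its 4 probe sets was higher in adult cells with no overlap between arrays in either comparison.

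Dusp6, a cytoplasmic phosphatase of ERK, read 8.55 and 8.17 on the adult arrays, 7.54, 7.13 and 7.47 on the Hmga2-/- arrays and 7.99, 7.90 and 7.70 on the Hmga2+/+ fetal arrays. As for Klf6, the 3 groups did not overlap and Hmga2-/- cells were lowest, with the share of all genes not counted. The call against Hmga2-/- cells (0.98, SE 0.20, adjusted p = 0.0217) rests on part of the gene. Of 4 probe sets, 1 differed by 3.34 and the others by -0.15 to 0.67. The deposited exon table gave -0.0345 (limma adjusted p = 0.942). It holds only part of these same probe sets, without the one that differed most, so it is not a second measurement. Dusp2, a nuclear phosphatase abundant in blood cells, read 7.55 and 7.19 on the adult arrays, 6.43, 6.35 and 6.06 on the Hmga2-/- arrays and 7.44, 6.69 and 6.78 on the Hmga2+/+ fetal arrays. Hmga2-/- cells were the low group, and adult and Hmga2+/+ fetal arrays overlapped. It was called against Hmga2-/- cells (1.09, SE 0.25, adjusted p = 0.0313) and not against Hmga2+/+ fetal cells (0.40, SE 0.25, adjusted p = 0.431). Dusp5 had means of 6.58 in adult, 6.82 in Hmga2-/- and 6.46 in Hmga2+/+ fetal cells.

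**Figure D2:**
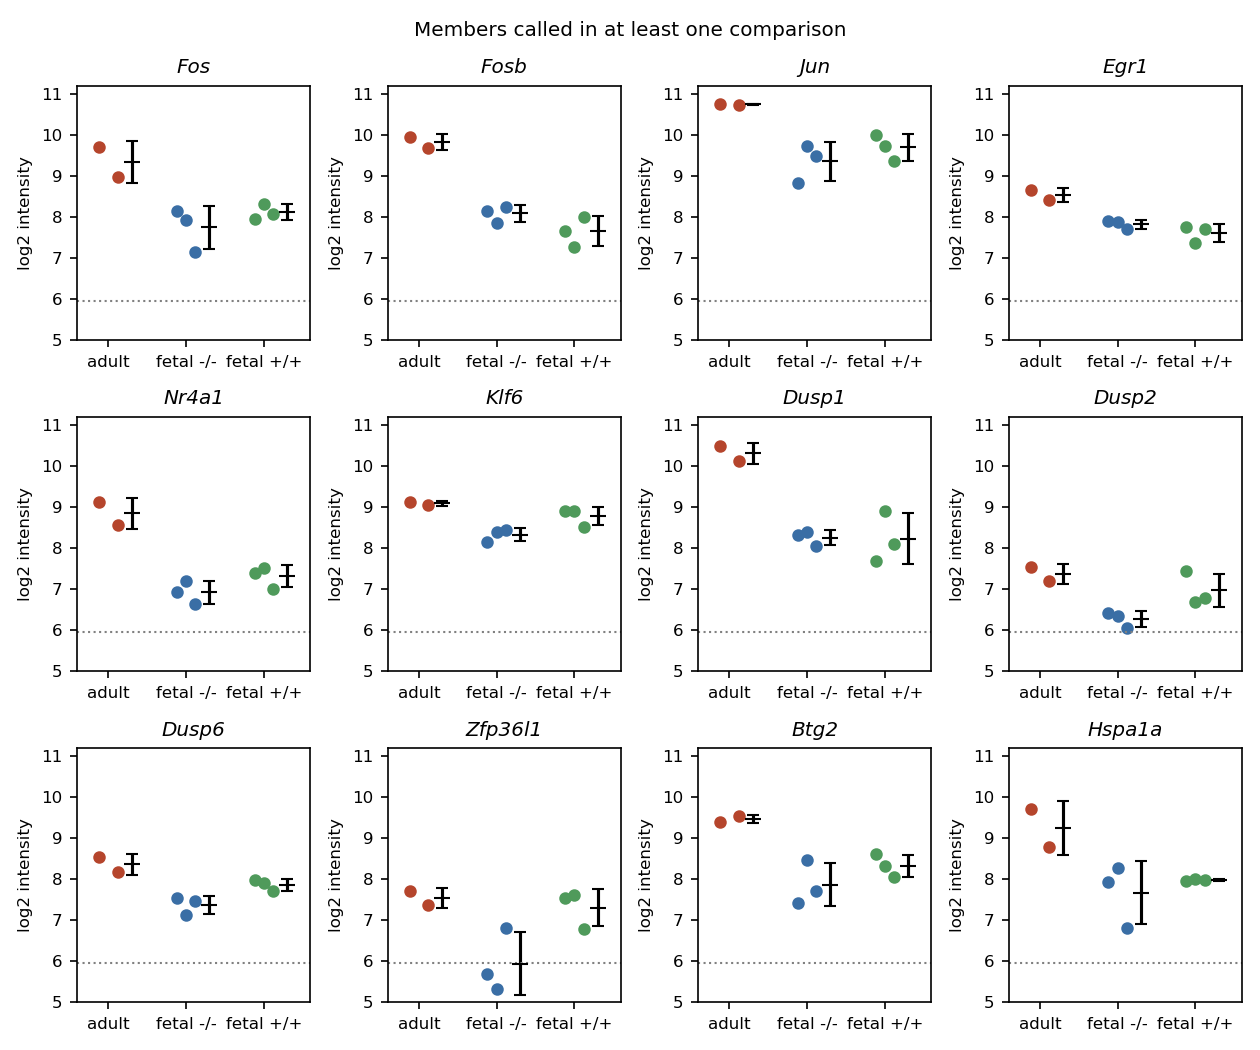
Log2 intensity of the 12 members called in at least 1 comparison; points are single arrays, crosses with bars the mean ± SD of each group (n = 2 adult, 3 Hmga2-/- fetal, 3 Hmga2+/+ fetal), and the dotted line the background level of 5.97. For Fosb, Dusp1, Nr4a1 and Egr1 the adult points lie above both fetal groups, and for Zfp36l1 the Hmga2-/- points lie around the background line.

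Btg2, an antiproliferative protein that also speeds the loss of poly(A) tails, read 9.40 and 9.54 on the adult arrays, 7.43, 8.46 and 7.72 on the Hmga2-/- arrays and 8.61, 8.33 and 8.07 on the Hmga2+/+ fetal arrays. It was high on both adult arrays and varied among the fetal ones. The call held against Hmga2-/- cells (1.60, SE 0.29, adjusted p = 0.0162), and the difference from Hmga2+/+ fetal cells was 1.13 (SE 0.29, adjusted p = 0.0725).

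Zfp36l1, an RNA-binding protein that brings AU-rich mRNAs to decay, read 7.72 and 7.37 on the adult arrays, 5.69, 5.34 and 6.82 on the Hmga2-/- arrays and 7.53, 7.62 and 6.78 on the Hmga2+/+ fetal arrays. Adult and Hmga2+/+ fetal cells had like values, and 2 of 3 Hmga2-/- arrays lay below background. Averaged over its probe sets, adult cells were at least 2.46-fold above Hmga2-/- cells, a bound that allows for background only (measured 1.60, SE 0.41, adjusted p = 0.0446). That call rests on part of the gene as well: 1 of 5 probe sets differed by 4.67 and the others by 0.27 to 1.25, and with medians of probe sets the difference was 0.90 (adjusted p = 0.287). Adult cells did not pass against Hmga2+/+ fetal cells (0.24, SE 0.41, adjusted p = 0.796). Zfp36, the related protein tristetraprolin, had means of 9.00 in adult, 8.65 in Hmga2-/- and 8.32 in Hmga2+/+ fetal cells and was not called.

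The members grouped under NF-kappaB and cytokine feedback gave no call. Tnfaip3, the ubiquitin-editing enzyme A20, came nearest, with 6.74 and 7.10 on the adult arrays, 6.27, 6.34 and 6.12 on the Hmga2-/- arrays and 6.50, 6.60 and 6.12 on the Hmga2+/+ fetal arrays. Its adult arrays lay above all fetal ones by a small margin (0.68, SE 0.20, adjusted p = 0.0649 against Hmga2-/- cells, and 0.51, SE 0.20, adjusted p = 0.210 against Hmga2+/+ fetal cells). The IkappaB proteins Nfkbia and Nfkbiz and the JAK-STAT inhibitor Socs3 had adult differences from -0.06 for Socs3 against Hmga2-/- cells to 0.36 for Nfkbiz against Hmga2+/+ fetal cells.

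The 3 IER proteins were named for their immediate-early induction. Ier5, which takes part in HSF1 activation in human cells, read 7.84 and 6.93 on the adult arrays, 6.90, 6.70 and 6.44 on the Hmga2-/- arrays and 6.50, 6.50 and 6.63 on the Hmga2+/+ fetal arrays. The first adult array was far above the fetal range and the second only just above it (0.84, SE 0.26, adjusted p = 0.123 against Hmga2+/+ fetal cells). Ier3, a regulator of apoptosis, read 8.27 and 7.80 on the adult arrays, 7.37, 7.12 and 6.96 on the Hmga2-/- arrays and 7.58, 7.53 and 6.79 on the Hmga2+/+ fetal arrays. It did not pass either (0.88, SE 0.27, adjusted p = 0.0704 against Hmga2-/- cells). Ier2 had means of 6.80 in adult, 6.49 in Hmga2-/- and 6.65 in Hmga2+/+ fetal cells.

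Hspa1a, the stress-inducible Hsp70 chaperone, read 9.72 and 8.78 on the adult arrays, 7.93, 8.28 and 6.81 on the Hmga2-/- arrays and 7.96, 8.01 and 7.99 on the Hmga2+/+ fetal arrays. The Hmga2+/+ fetal arrays were nearly equal, while the adult arrays and the Hmga2-/- arrays were widely spread. It was called against Hmga2-/- cells (1.58, SE 0.40, adjusted p = 0.0445) and not against Hmga2+/+ fetal cells (1.26, SE 0.40, adjusted p = 0.136). Hspa1a and Hspa1b are near-identical copies, so the value may hold signal of both. Hspa8, the constitutive Hsc70 chaperone, had means of 12.45 in adult, 12.23 in Hmga2-/- and 12.31 in Hmga2+/+ fetal cells and was not called.

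Of the survival, growth arrest and cytoskeletal members, Cyr61 read 6.13 and 6.03 on the adult arrays, 5.82, 6.16 and 5.75 on the Hmga2-/- arrays and 5.73, 5.68 and 5.61 on the Hmga2+/+ fetal arrays. These values straddle the background level, and the adult difference from Hmga2+/+ fetal cells did not pass (0.40, SE 0.17, adjusted p = 0.254). Mcl1, an anti-apoptotic BCL2 relative that stem cells need, had means of 9.38 in adult, 9.26 in Hmga2-/- and 9.13 in Hmga2+/+ fetal cells. Gadd45a, a DNA damage response gene, had means of 6.64 in adult, 6.79 in Hmga2-/- and 6.82 in Hmga2+/+ fetal cells. Neither passed, and Gadd45b and Rhob lay below background in all 3 groups.

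**Figure D3:**
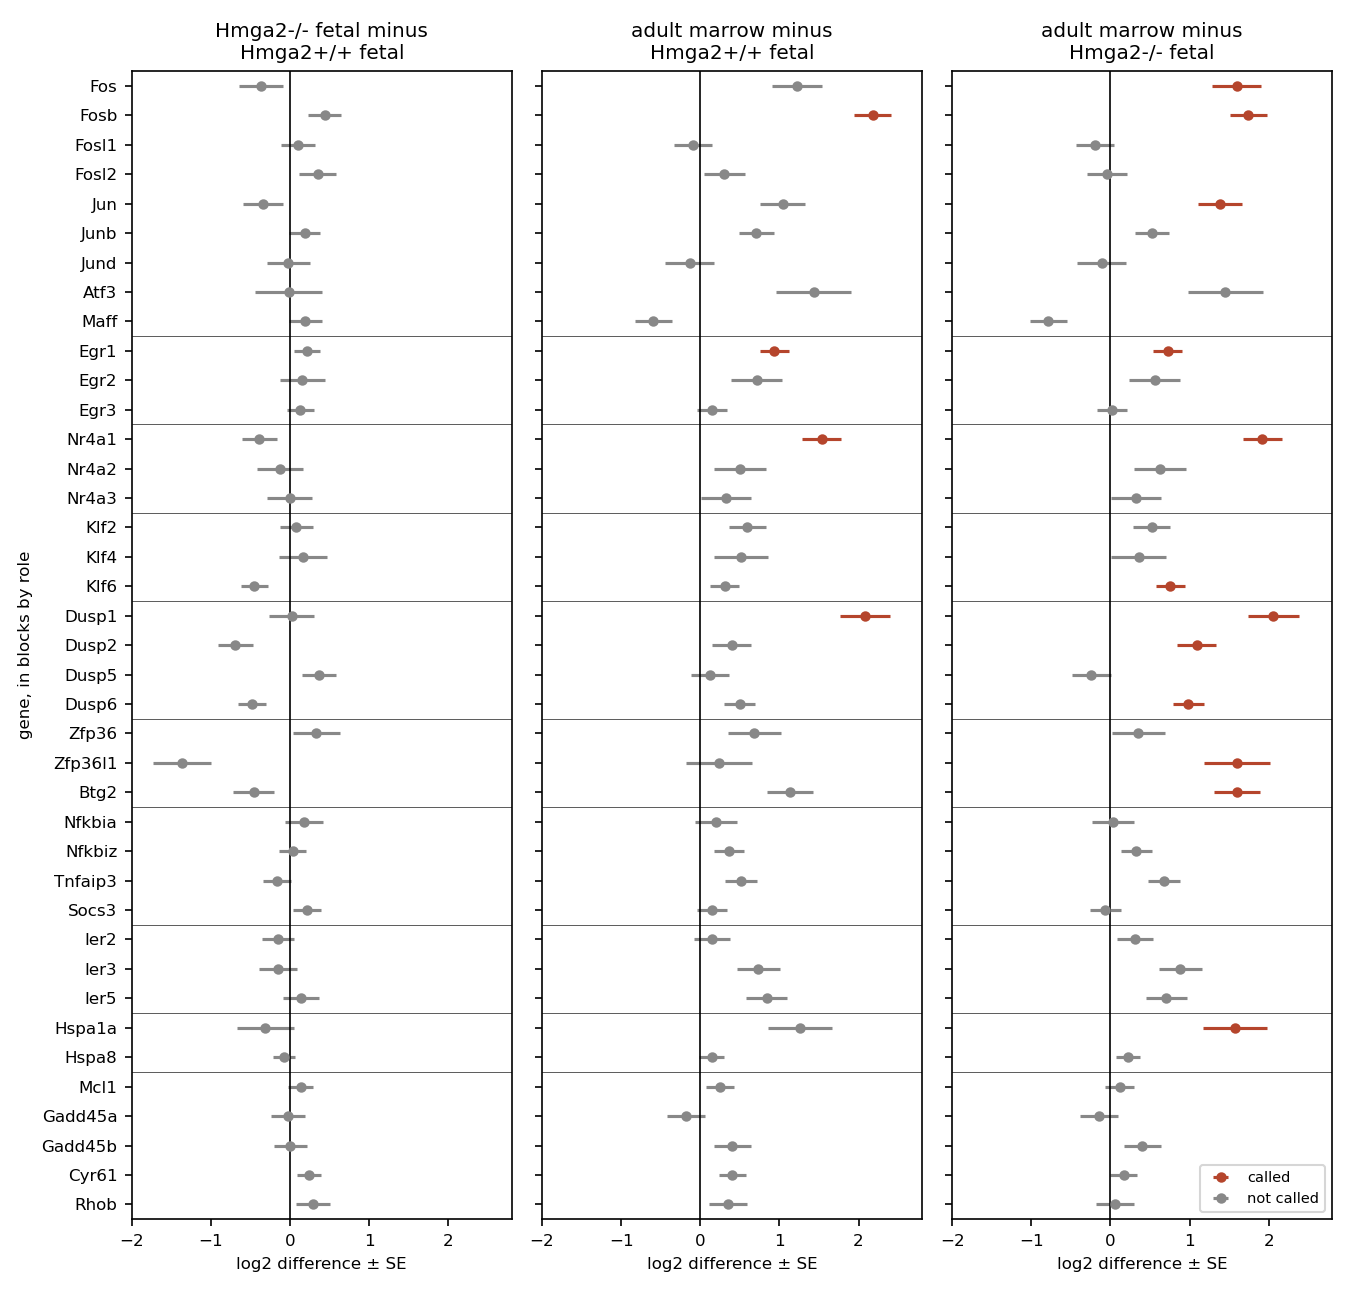
Log2 difference ± SE of each of the 39 members in the 3 comparisons, in blocks by role, with called members in red. The 4 and 12 red points of the adult comparisons all lie right of 0, and the left panel, Hmga2-/- minus Hmga2+/+ fetal cells, has none.

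The third comparison was Hmga2-/- against Hmga2+/+ fetal cells, which for each member is also the test of whether its 2 adult differences differ. Its members' median was 0.02, beside -0.02 over all genes, and 21 of 39 members were above 0 (46.8% of all genes). No member was called by limma. Without adjustment, at p under 0.05, 0 members were higher (3.55% of all genes) and 4 were lower (10.3%, where 4.08% of all genes were). The 4 were Zfp36l1 (-1.36, SE 0.37, adjusted p = 0.577), Dusp2 (-0.69, SE 0.22, adjusted p = 0.631), Dusp6 (-0.49, SE 0.18, adjusted p = 0.632) and Klf6 (-0.45, SE 0.17, adjusted p = 0.632). Next in order of p came Fosb (0.44, SE 0.21, adjusted p = 0.655) and Btg2 (-0.46, SE 0.26, adjusted p = 0.671). Arrays did not overlap for Dusp2, Dusp6 and Klf6 on the lower side (7.86% of all genes) and for Cyr61 on the higher side (5.94%).

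Averaged over its probe sets, Zfp36l1 read at least 2.08-fold lower in Hmga2-/- cells, a bound that allows for background only, and it was not called. All 5 of its probe sets were lower, 1 with a difference of -3.50 and the others with -1.36 to -0.37. The third Hmga2-/- array, at 6.82, overlapped the third Hmga2+/+ array, at 6.78. Dusp2 had 2 probe sets higher and 2 lower, from -1.68 to 0.33. Dusp6 had 2 probe sets higher and 2 lower, from -2.38 to 0.38. In the exon table, which lacks its probe set with -2.38, the Dusp6 difference turned to 0.37 (limma adjusted p = 0.688). The 4 members that read lower in Hmga2-/- cells at an unadjusted p under 0.05, none of them called, are also among the 12 called adult against Hmga2-/- cells. That comparison uses the same Hmga2-/- arrays.

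**Figure D4:**
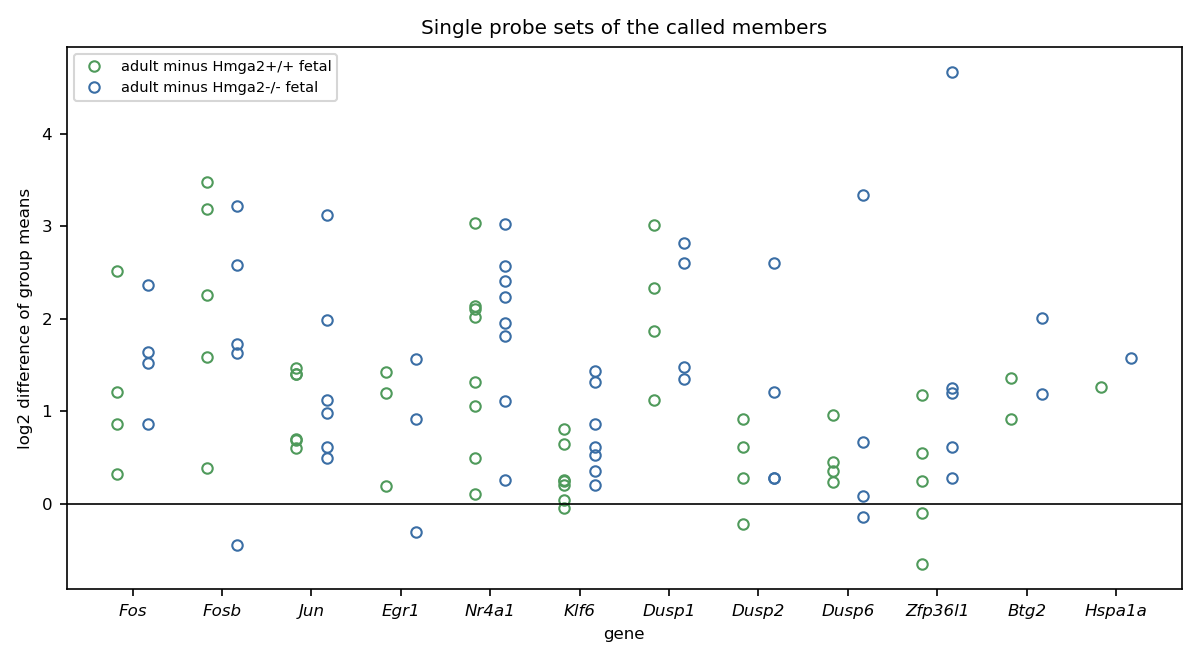
Each circle is 1 probe set of a called member, at the log2 difference of the adult mean from the Hmga2+/+ fetal mean (green) or the Hmga2-/- fetal mean (blue). Nr4a1, Dusp1, Jun, Fos and Btg2 have all circles above 0, while Dusp6 and Zfp36l1 each have 1 blue circle far above their others.

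The 2 adult arrays did not contribute equally. Adult array 1 was above adult array 2 in 29 of 39 members (74.4%, against 52.4% of all genes). Averaged over members, the deviation from the mean of the 8 arrays was 0.58 and 0.32 on the adult arrays, -0.16, -0.11 and -0.25 on the Hmga2-/- arrays and -0.06, -0.13 and -0.20 on the Hmga2+/+ fetal arrays, so the second adult array was still above every fetal one. Without adult array 1, Fosb alone was called against Hmga2+/+ fetal cells (1 member), and Fosb, Dusp1 and Nr4a1 against Hmga2-/- cells (3 members). Over all genes, the third Hmga2+/+ fetal array correlated at 0.974 to 0.975 with the Hmga2-/- arrays and at 0.957 and 0.965 with its own group. It also had the lowest array weight (0.56). Without it, 0 members were called in Hmga2-/- against Hmga2+/+ fetal cells, with Zfp36l1 at -1.63 (limma adjusted p = 0.159). Adult against Hmga2-/- cells, 14 members were then called, 13 higher and 1 lower. Adult against Hmga2+/+ fetal cells, 2 members, Fosb and Nr4a1, were called without that array. Against the same cells, Fosb (adjusted p = 0.0505), Dusp1 and Egr1 lost their calls with medians of probe sets, Dusp1, Nr4a1 and Egr1 in a fit of the 2 groups alone, and Egr1 with a variance trend.

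Against Hmga2-/- cells, 7 members were called without Hmga2-/- array 1, 5 without array 2 and 5 without array 3. Fosb, Dusp1 and Nr4a1 kept their calls there under all 21 alternatives tried. Maff was called lower there under 4 of the 21. These were a fit of the 2 groups alone, the first or the third Hmga2+/+ fetal array left out, and an adjusted p under 0.1. Egr1 lost its call against Hmga2+/+ fetal cells without any 1 of the 8 arrays, and against Hmga2-/- cells without any 1 of the adult or Hmga2-/- arrays. Hspa1a lost its call without any 1 array other than the second adult one, and Zfp36l1 without any 1 other than the third Hmga2-/- or the third Hmga2+/+ array. Hspa1a and Zfp36l1 also lost theirs in a fit of the 2 groups alone and as log2(value + 16), Hspa1a with array weights and with arrays centred on their medians, and Egr1 with that centring and with a variance trend. With medians of probe sets Fos, Dusp2, Klf6, Hspa1a and Zfp36l1 were not called, and in the exon table Dusp2, Dusp6, Klf6 and Zfp36l1 were not. The exon table holds only some of the probe sets of those members, with the same values, and is not a second measurement. For Klf6 it holds 1, which differed by 1.44. Fos lost its call without adult array 1 or Hmga2-/- array 2. Jun and Btg2 lost theirs without either adult array or Hmga2-/- array 3, Dusp2 without adult array 1 or any Hmga2-/- array, Dusp6 without adult array 1 or Hmga2-/- arrays 2 or 3, and Klf6 without either adult array, any Hmga2-/- array or the second Hmga2+/+ fetal array.

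Other genes of these pathways did not all move with the members. They were listed by their known roles, but with earlier results of these data known. Of 48 further immediate-early genes, 5 were called higher and 1 lower in adult than in Hmga2+/+ fetal cells, with a median of 0.23; over all genes the shares were 0.832% and 2.36%. The higher ones were the G protein regulators Rgs1 (1.97, SE 0.25, adjusted p = 0.00687) and Rgs2 (0.75, SE 0.17, adjusted p = 0.0464), the chemokine Ccl3 (1.28, SE 0.21, adjusted p = 0.0158), the eIF2alpha phosphatase subunit Ppp1r15a (1.09, SE 0.19, adjusted p = 0.0229) and the IkappaB protein Nfkbid (0.79, SE 0.16, adjusted p = 0.0348). The polo-like kinase Plk2 fell (-1.71, SE 0.24, adjusted p = 0.00995). Against Hmga2-/- cells 7 were called higher and 2 lower, with a median of 0.25, beside 3.11% and 5.8% over all genes.

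Most calls among the upstream and stress pathway genes were on the lower side in adult cells, as were most calls over all genes. Of 32 measured serum response and MAP kinase pathway genes, 0 were called by limma in adult against Hmga2+/+ fetal cells, and the median was -0.22. Without adjustment, p under 0.05 was met there by 1 higher and 8 lower ones, beside 7.29% and 11.3% over all genes. Against Hmga2-/- cells 3 were called lower (5.8% of all genes), among them the kinases Map2k4 (-1.60, SE 0.30, adjusted p = 0.0178) and Map2k6. Of 28 NF-kappaB and JAK-STAT pathway genes, the interleukin-1 receptor Il1r1 was called higher in adult than in Hmga2+/+ fetal cells, at least 2.96-fold (adjusted p = 0.0402, where 0.832% of all genes were). Against Hmga2-/- cells Stat5a was called higher (0.69, SE 0.15, adjusted p = 0.0285) and Myd88 lower (-1.20, SE 0.31, adjusted p = 0.0441), beside 3.11% and 5.8% of all genes. Of 21 heat shock and chaperone genes none was called higher and 3 were called lower in adult than in Hmga2+/+ fetal cells (2.36% of all genes). These were the mitochondrial chaperone Hspa9 (-1.06, SE 0.23, adjusted p = 0.0418) and the chaperonin subunits Tcp1 (-1.03, SE 0.16, adjusted p = 0.0134) and Cct2 (-0.78, SE 0.15, adjusted p = 0.0326). Compared with Hmga2-/- cells, 4 were called lower, these same 3 and Stip1 (5.8% of all genes). Of 18 genes of the integrated and oxidative stress responses, Asns, which makes asparagine, was called lower than in Hmga2+/+ fetal cells (-1.77, SE 0.19, adjusted p = 0.00298, where 2.36% of all genes were). Against Hmga2-/- cells Asns (-1.50, SE 0.19, adjusted p = 0.00532) and Gadd45gip1 (-1.34, SE 0.30, adjusted p = 0.0303) were called lower (5.8% of all genes). In Hmga2-/- against Hmga2+/+ fetal cells, limma called none of the 147 measured genes of these 5 lists. Without adjustment, p under 0.05 was met by 9 higher and 4 lower ones, beside 3.55% and 4.08% over all genes.

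Markers of other cell types also differed between adult and fetal cells. Of 5 megakaryocyte markers, Pf4 and Itga2b were called higher in adult than in Hmga2+/+ fetal cells, and the summed linear intensity of the 5 was 682 to 708 on adult arrays, 324 to 478 on Hmga2-/- arrays and 321 to 348 on Hmga2+/+ fetal arrays. Of 5 dendritic cell markers, H2-Aa, H2-Ab1 and Cd74 were called higher, the sum being 533 to 808 on adult arrays, 178 to 232 on Hmga2-/- arrays and 200 to 235 on Hmga2+/+ fetal arrays, with Itgax and Cd74 itself below background in all 3 groups. Of 8 neutrophil markers, Ctsg was called higher, with Camp, Ngp and Ltf below background in all 3 groups and a sum of 1649 to 2234 on adult, 2097 to 2479 on Hmga2-/- and 2238 to 2825 on Hmga2+/+ fetal arrays. Of the gate and stem or progenitor markers, Cd48 was called lower in adult cells in both comparisons, and Ly6a, which encodes Sca1, higher than in Hmga2-/- cells (2.32, SE 0.44, adjusted p = 0.0179). Against Hmga2-/- cells, Pf4 (1.90, SE 0.45, adjusted p = 0.0359), Itga2b (0.66, SE 0.16, adjusted p = 0.0402), H2-Ab1 (2.35, SE 0.28, adjusted p = 0.00437) and H2-Aa (2.77, SE 0.38, adjusted p = 0.00687) were called higher too, in the direction of the members. The erythroid marker Tfrc, the monocyte marker Cd68 and the endothelial marker Cdh5 were called lower there. No B cell, T and NK cell, monocyte or hepatocyte marker was called against Hmga2+/+ fetal cells. The part of any other cell type in the members' differences was not tested, and in bulk RNA fewer cells of a type and less RNA per cell cannot be told apart.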

How the data were processed

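Sorted cells of 8 samples were profiled on Affymetrix Mouse Gene 1.0 ST arrays, after amplification with the Ovation Pico WTA System, per the labels' protocols. Per the submitters' processing notes the authors used RMA, without a version or settings in the sources used here. They deposited linear intensity values, between 3.03 and 13252, for 225993 probe sets. Their exon-level file has 199508 rows, and 179925 of these match exactly 1 probe set in all 8 values.

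Values were log2 transformed without further normalization. In the platform annotation 208881 probe sets carried exactly 1 symbol, 1668 several and 15444 none, and only those with 1 were used. Of 19958 symbols, 17255 were current in RefSeq (GRCm38.p6), 2585 were updated and 118 kept as given; Cyr61 is Ccn1 in RefSeq. Probe sets were averaged per gene, with a median of 8 each.

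Groups were compared in 3 pairs by limma 3.58.1 in R 4.3.3 (lmFit and eBayes, all 8 arrays in 1 fit, 1 coefficient per group, two-sided, Benjamini-Hochberg over all genes). The fit was also run on simulated arrays with independent noise at the fitted spreads. That run does not test how the measured arrays vary. Tables and figures were made with Python 3.11.15, pandas 2.3.3, numpy 2.4.6 and matplotlib 3.10.9. No fold is given where both group means lay below background; where the dimmer one did, the fold is a bound, with each array of that group that lay below background raised to it before averaging. Per-array values are printed for members called, or with an unadjusted p under 0.05, in any comparison, filled up to 6 members a comparison, and other members by group means and ranges. The members, context lists and motifs were chosen with earlier results of these data known, so no test was run over a list.

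The labels call the samples of a group biological replicates and do not say that equal numbers share a litter or day. The p-values thus rest on the spread among these arrays. No array was a copy of another. Alternatives were the 2 compared groups only, a block for the replicate number, variance with a trend or robust estimation, array weights, quantile and median normalization, medians of probe sets, 2 filters on dim values, the exon table, log2(value + 16), a looser threshold and each array left out in turn.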

Additional observations from a re-analysis of the deposited data

How the results depend on the processing

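In Hmga2-/- against Hmga2+/+ fetal cells 0 members were called under every alternative tried. The members' median was -0.11 with medians of probe sets, and the exon table called 1 gene of all genes. In adult against Hmga2+/+ fetal cells the count of members called was 1 and of all genes 120 in a fit of the 2 groups alone, 1 and 179 with medians of probe sets, and 7 and 1293 at an adjusted p under 0.1. The exon table called 322 of all genes. In adult against Hmga2-/- fetal cells medians of probe sets called 7 members and 762 genes, the exon table called 6 of 31 measured members and 1103 genes with a members' median of 0.30, and an adjusted p under 0.1 called 3597 genes. Dusp6 changed sign in the exon table, to 0.37 for Hmga2-/- minus Hmga2+/+ and to -0.0345 for adult minus Hmga2-/- (that table holds 2 of its 4 probe sets, without the one that differed most); for the remaining changes the cause was not tested.

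Deviations of same-numbered arrays from their group means correlated between -0.04 and 0.11, so the numbers were not taken as pairs. With the replicate block 2 members and 185 genes were called in adult against Hmga2+/+ fetal cells, 3 and 489 in adult against Hmga2-/- cells, and 0 members in Hmga2-/- against Hmga2+/+ cells.

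With each array left out in turn, adult against Hmga2+/+ fetal cells gave 1 to 4 members, 225 to 574 genes and a members' median of 0.35 to 0.57, and adult against Hmga2-/- cells 3 to 14 members, 482 to 2437 genes and a median of 0.42 to 0.61. Where that leaves 1 adult array, it is taken to vary like the other groups. Quantile normalization left the same 4 and 12 members called and moved the median of all genes to 0.08 and 0.11; among the 9638 genes above background it was -0.15 and -0.20. For single members, 745 values kept their direction and their side of the threshold, 84 lost a call, 19 gained one and 2 reversed. Of the counts, 92 stayed within 1.5 times and 34 did not, and of the medians 57 moved by less than the spread between arrays and 3 by more. With 2 or 3 arrays a group and amplified RNA, dim members such as Nr4a3, Gadd45b, Rhob and Cyr61 are not measured well.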
